A study of Homo sapiens with 6 samples.

Results

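Receptor tyrosine kinases are single-pass membrane proteins whose genes were followed here in BT549, an established human breast cancer cell line, after treatment with ENL, a name taken from the labels. The members were 44 named genes of this class, all 44 found by symbol among the 19923 genes of the deposited count table. RNA sequencing covered 3 control libraries and 3 libraries of cells treated with ENL. Every library came from this line, and the labels give no genotype, dose, duration or vehicle, nor do they spell out ENL, so the name serves only as a group name. Nothing in them ties the replicates to separate cultures, and p-values therefore measure only the spread between these libraries, which may be technical. Of the 44 members, 35 had enough counts to be tested. In 30 of these both groups passed the filter on low counts, while PDGFRA, PDGFRB, CSF1R and EPHB6 passed through the control libraries only and EPHB3 through the ENL libraries only.

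A receptor tyrosine kinase binds a ligand outside the cell, pairs with another receptor and phosphorylates tyrosines on its partner, which adaptor proteins then read to switch on the RAS-ERK, PI3K-AKT and phospholipase C pathways. The class is divided into families by the outer part of the receptor: the ERBB, MET, insulin, PDGF, FGF and VEGF receptors bind soluble growth factors, the DDR receptors bind collagen, and the Eph receptors bind ephrins, which are held on the membrane of neighbouring cells. In breast cancer the class is known above all for ERBB2, which is amplified in a subset of tumours, and for EGFR, AXL, MET and EPHA2, which are often abundant in cell lines of mesenchymal type.

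The libraries held 74457932 to 85310759 units. The deposited values are estimated counts in which about 4 units stand for 1 sequenced fragment, so that 1 fragment corresponded to 0.0457 to 0.0587 CPM (counts scaled to library size, with trimmed mean factors). Among the ENL libraries, library 3 stood apart on the second principal component (55.8 against -22.0 and -26.3, 14.3% of the variance). The labels name the source as mammary epithelium. The summed level of 16 epithelial markers was 94.6 to 128 CPM in control and 120.4 to 146 CPM in ENL, with 2 of 13 tested markers higher (KRT7 and KRT8) and 3 lower (KRT5, CLDN4 and CLDN7). GATA3, KRT18, KRT8 and KRT7 made up most of that sum, while EPCAM and CDH1, which define epithelial contacts, averaged at most 0.205 CPM per group and PGR was at 0 in all libraries. KRT5 was at 3.66, 11.1 and 3.61 CPM in control and at 1.42, 1.78 and 1.71 CPM in ENL. Control library 2, where KRT5 stood far above the other controls, also held the highest control sum. Of 11 mesenchymal markers, the member AXL among them, 6 rose and 2 fell. Called were 38.5% of the tested epithelial and 72.7% of the mesenchymal markers. Of all tested genes 38.4% were called, 20% higher and 18.4% lower. VIM, a filament gene, was at 2744 ± 453 CPM (mean ± SD, n = 3) in control and 5949 ± 503 CPM in ENL, a log2 fold change of 1.12 ± 0.14 (SE, adjusted p = 0.00122), while SPARC and CAV1 fell by 1.83 ± 0.07 and 0.52 ± 0.07 on the log2 scale. ESR1, the oestrogen receptor gene, was below 1 CPM in every library.

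Of the 7 receptor kinases that rose after ENL, 5 were Eph receptors, and FGFR4, which encodes a fibroblast growth factor receptor, showed the best supported fall. EPHA5, EPHA4 and EPHA1 rose 11.1-fold, 3.92-fold and 2.24-fold, EPHB4 rose 1.53-fold, and FGFR4 fell to 0.380 of its control level. Smaller rises were called for MERTK, PTK7 and EPHA2, and a fall for ERBB2. PDGFRB, CSF1R and EPHB6 were also called lower, but all 3 held at most 45 fragments per group and passed the low-count filter only through the control libraries, where they were high. The abundant growth factor receptor genes EGFR, MET, AXL, FGFR1, IGF1R and INSR did not pass the test. By the quasi-likelihood test of edgeR, adjusted by Benjamini and Hochberg's method over 14086 tested genes, 12 of the 35 tested members passed an adjusted p of 0.05, 7 higher and 5 lower in ENL, and without the filter 6 and 3. Over all tested genes 38.4% passed, 20% higher and 18.4% lower, against 34.3% of the members, a share near that background. The median log2 fold change of the tested members was -0.01 and that of all tested genes -0.02. The ENL libraries lay wholly above the control libraries for 9 members and wholly below for 7, while over all tested genes the libraries did not overlap in 54% (26.4% higher and 27.6% lower). Scaling by library totals alone moved the median of all genes to -0.23 and upper-quartile scaling to -0.11; each of these ended the calls of MERTK, PTK7 and EPHA2 and added MST1R to the lower members. The share of all called genes that were higher was 52.2% here, 31.1% with library totals and 42.9% with the upper quartile.

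**Figure D1:**
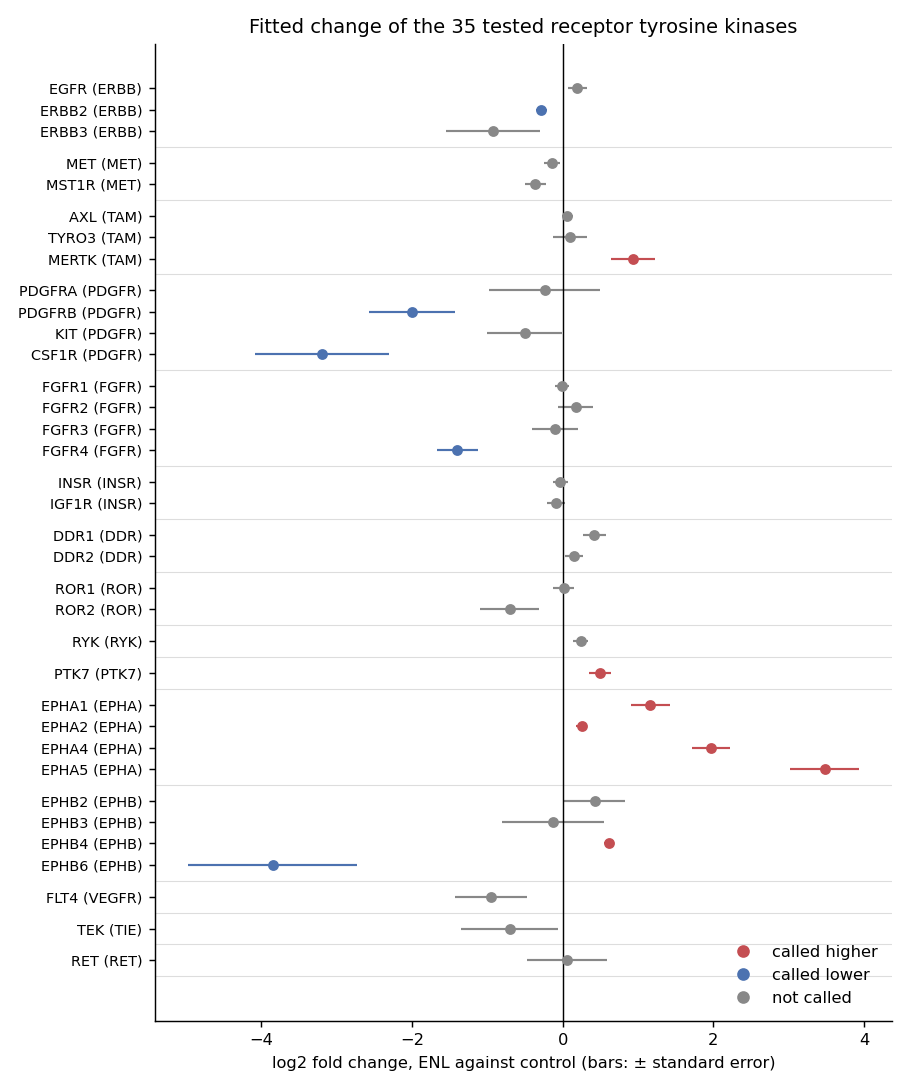
Log2 fold change (x axis, ENL against control, bars ± standard error) of the 35 tested kinases, ordered by family on the y axis. Red points were called higher, blue lower, grey not called: all 4 tested EPHA receptors are red, and the widest bars belong to genes of few fragments such as EPHB6 and CSF1R.

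Of the 12 called members, EPHA1, EPHA4, EPHA5, EPHB4 and FGFR4 kept their calls in every other setting in which they were tested. The sequence before the start of each of these genes is shown so that a reader can see what kind of promoter stands behind them. They are the 250 bases before the most upstream start in RefSeq (GRCh38.p14), written in the direction of the gene, and capitals mark the GC box, GGGCGG or its reverse complement. The windows are chr7:143408857-143409106 (minus strand) for EPHA1, chr2:221574203-221574452 (minus) for EPHA4, chr4:65670490-65670739 (minus) for EPHA5, chr7:100827524-100827773 (minus) for EPHB4 and chr5:177086665-177086914 (plus) for FGFR4. EPHA4, EPHA5 and FGFR4 each have 2 starts in the table, and gene counts do not tell which was used.
EPHA1: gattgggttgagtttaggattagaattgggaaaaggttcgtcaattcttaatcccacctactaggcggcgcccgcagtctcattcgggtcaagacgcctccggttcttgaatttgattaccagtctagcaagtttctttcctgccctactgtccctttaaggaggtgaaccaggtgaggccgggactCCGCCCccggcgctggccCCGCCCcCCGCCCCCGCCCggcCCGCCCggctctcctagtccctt
EPHA4: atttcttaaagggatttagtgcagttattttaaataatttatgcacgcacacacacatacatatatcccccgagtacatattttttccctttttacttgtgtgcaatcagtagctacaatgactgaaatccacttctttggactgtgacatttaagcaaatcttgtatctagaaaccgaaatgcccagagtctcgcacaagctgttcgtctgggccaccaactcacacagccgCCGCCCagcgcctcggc
EPHA5: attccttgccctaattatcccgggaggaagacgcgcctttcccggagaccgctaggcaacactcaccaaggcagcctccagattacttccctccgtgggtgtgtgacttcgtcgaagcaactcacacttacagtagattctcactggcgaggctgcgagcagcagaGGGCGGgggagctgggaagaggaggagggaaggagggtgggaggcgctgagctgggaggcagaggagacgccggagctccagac
EPHB4: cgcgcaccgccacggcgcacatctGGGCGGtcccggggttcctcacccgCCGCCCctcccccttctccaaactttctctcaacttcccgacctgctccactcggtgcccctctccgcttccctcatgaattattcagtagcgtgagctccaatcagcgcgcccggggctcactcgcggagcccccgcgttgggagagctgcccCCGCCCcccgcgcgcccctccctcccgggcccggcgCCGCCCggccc
FGFR4: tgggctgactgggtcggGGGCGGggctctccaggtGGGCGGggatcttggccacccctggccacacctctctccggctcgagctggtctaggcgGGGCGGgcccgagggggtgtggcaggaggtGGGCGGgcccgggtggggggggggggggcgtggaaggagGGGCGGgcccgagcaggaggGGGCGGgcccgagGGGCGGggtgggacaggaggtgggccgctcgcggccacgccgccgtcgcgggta

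The 5 windows differ in base composition. G and C make up 59.2% of the EPHA1 window, 43.2% of EPHA4, 61.2% of EPHA5, 72.8% of EPHB4 and 79.6% of FGFR4, against a median of 57.6% over the windows of 27305 genes and 69.2% over those of the 41 members in the table. GC boxes numbered 5 in EPHA1, 1 in EPHA4, 1 in EPHA5, 4 in EPHB4 and 7 in FGFR4. At least 1 was present in 32 of 41 member windows and 42.2% of all windows. On both strands, the AP-1 site TGANTCA (6.6% of all windows), the cyclic AMP element TGACGTCA (1.8%), the E-box CACGTG (6.5%), the ETS core CCGGAA (14.8%) and the TATA box TATAAA (11.2%) were not found in the 5 windows. CCAAT (33.0% of all windows) occurred in EPHA1 and EPHB4, and the aryl hydrocarbon receptor core GCGTG (31.9%) in EPHA4, EPHB4 and FGFR4. No motif of the set contains another. A match is a description of letters, not a binding site.

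The EphA receptors bind mostly ephrin-A ligands and steer cell contact and repulsion. All 4 members of the subfamily that were tested, EPHA1, EPHA2, EPHA4 and EPHA5, rose, where 20% of all tested genes were called higher, and EPHA3 and EPHA7 were too low to test. EPHA5 (chromosome 4, 65319563 to 65670495, minus strand, GRCh38), best known from neurons, was at 0.549, 0.383 and 0.953 CPM in the control libraries and at 5.02, 5.46 and 10.5 CPM in the ENL libraries. The groups did not overlap, and ENL library 3 stood well above the other ENL libraries. Its log2 fold change was 3.47 ± 0.46 (adjusted p = 0.00168), the largest rise among the tested members, and between 3.07 and 3.91 across the other settings. EPHA4 (chromosome 2, 221418027 to 221574202, minus strand), an unusual EphA receptor that also binds ephrin-B ligands, was at 5.33, 3.20 and 3.96 CPM in control and 14.7, 13.3 and 20.9 CPM in ENL. ENL library 3 was again the highest. The log2 fold change was 1.97 ± 0.25 (adjusted p = 0.00143), and without ENL library 3 both genes kept their calls.

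EPHA1 (chromosome 7, 143390289 to 143408892, minus strand), a receptor of epithelial tissues, stood at 1.10, 1.70 and 1.67 CPM in control and at 3.43, 3.86 and 2.75 CPM in ENL, where library 3 was the lowest. On the log2 scale the rise was 1.16 ± 0.26 (adjusted p = 0.0116). Its exons share 82 bases with ZYX on the opposite strand, which itself rose by 0.80 on the log2 scale. ZYX stood far above EPHA1, at 131 ± 9.67 CPM in control and 229 ± 32.7 CPM in ENL. Without a stated strand setting reads from the shared bases cannot be told apart, and their part in the rise of EPHA1 was not tested. EPHA2 (chromosome 1, 16124337 to 16156087, minus strand) was the most abundant receptor kinase in the line. It was at 341, 368 and 358 CPM in control and at 404, 428 and 442 CPM in ENL, with no overlap between the groups. The difference was small, a log2 fold change of 0.26 ± 0.07 (adjusted p = 0.0316), and came to 0.05 (adjusted p = 0.640) when libraries were scaled by their totals and 0.17 (adjusted p = 0.112) with upper-quartile scaling. Its call also ended without control library 1, 2 or 3 or ENL library 2 (adjusted p = 0.111, 0.0739, 0.0982 and 0.0691).

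Among the EphB receptors, which bind ephrin-B ligands, EPHB4 rose, and EPHB6, which passed the filter only through the control libraries, was called lower on few fragments. EPHB4 (chromosome 7, 100802565 to 100827521, minus strand), the receptor of EFNB2 in blood vessel formation, was at 75.2, 76.7 and 74.2 CPM in control and at 118, 115 and 113 CPM in ENL. The replicates of each group were close together, the groups were far apart, and the log2 fold change of 0.61 ± 0.07 (adjusted p = 0.000796) stayed between 0.40 and 0.68 in the other settings. Its exons share 69 bases with SLC12A9 on the opposite strand, which rose by 0.44. EPHB6, a receptor with an inactive kinase domain, was at 0.297, 0.358 and 0.165 CPM in control and at 0, 0 and 0.0482 CPM in ENL. These levels amount to about 17 fragments over the control libraries and 1 over the ENL libraries, a ratio of 0.0679 with an exact 95% counting interval of 0.00163 to 0.434. That interval covers counting error only, not the spread between libraries, and is no support apart from the filter. With counts divided by 4 the gene was not tested. The call (adjusted p = 0.0326) ended when counts were not filtered (0.0852) and without any library other than ENL library 3 (0.0651 to 0.106). EPHB2 (log2 fold change 0.43 ± 0.40) and EPHB3 (-0.13 ± 0.67) were not called, and EPHB1 was at 0 in all 6 libraries.

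**Figure D2:**
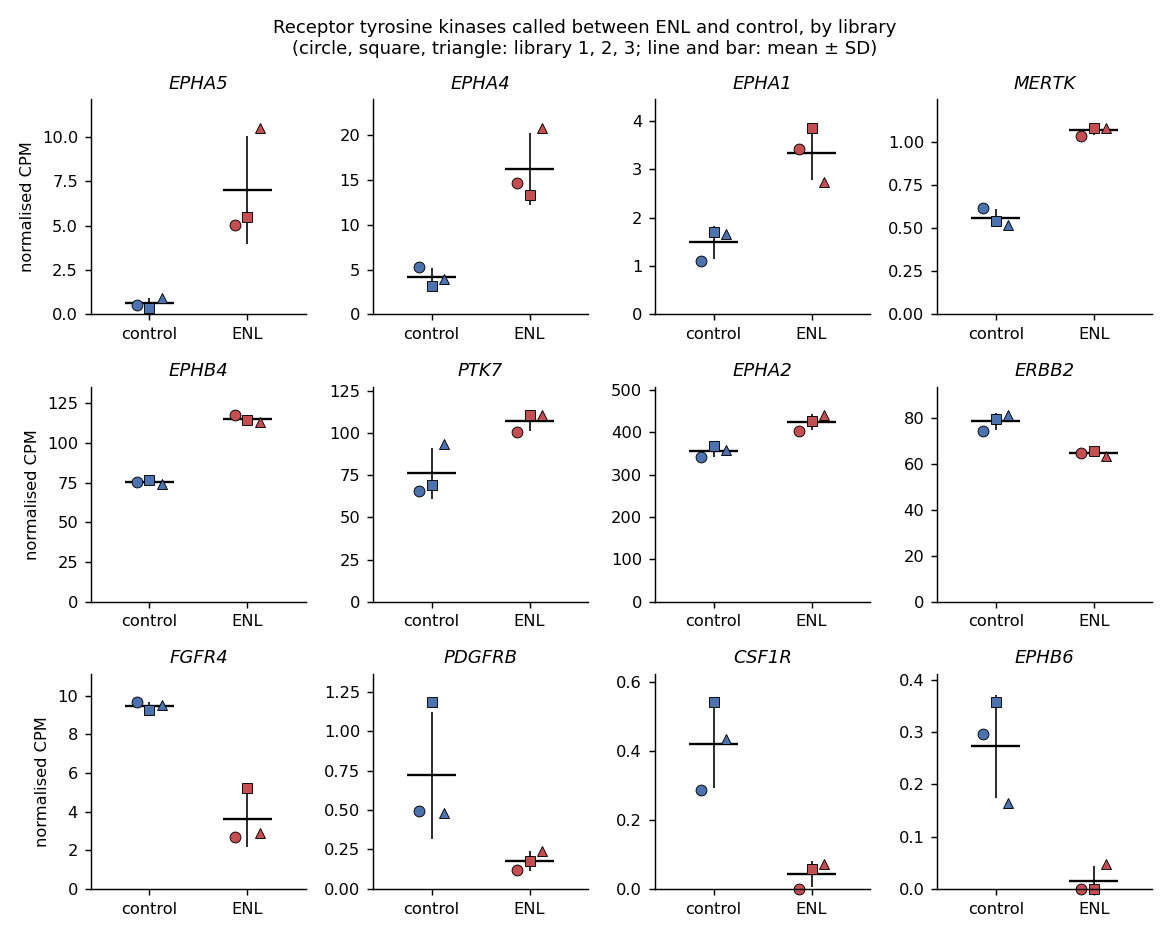
Normalised CPM (y axis, from 0) in each library (x axis, control and ENL) for the 12 called kinases, ordered by log2 fold change, with the mean and SD of each group. ENL library 3 (triangle) is the highest point for EPHA5 and EPHA4, and PDGFRB, CSF1R and EPHB6 lie at or below 1.18 CPM in every library.

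PTK7, ROR1, ROR2 and RYK are receptors or co-receptors of Wnt ligands, and PTK7 and RYK lack kinase activity of their own. PTK7 (chromosome 6, 43076268 to 43161719, plus strand) was at 65.7, 69.0 and 93.7 CPM in control and at 100.5, 111 and 111 CPM in ENL. Control library 3 lay close to the ENL libraries, although the groups did not overlap. ENL exceeded control by 0.50 ± 0.14 on the log2 scale (adjusted p = 0.0326). Without control library 3 it was 0.67 and the call held, whereas it ended without control library 1 or 2 (adjusted p = 0.103 and 0.105) or ENL library 1, 2 or 3 (0.0554, 0.0832 and 0.0705), and under scaling by totals (0.171) or the upper quartile (0.0609). RYK, at 61.1 to 68.2 CPM in control and 68.5 to 79.9 CPM in ENL without overlap, did not pass the test (log2 fold change 0.24 ± 0.09, adjusted p = 0.0859), though without ENL library 2 it did (0.0445). ROR1 stood at 16.5 to 17.2 and 14.9 to 20.1 CPM (0.01 ± 0.14). ROR2, at about 1 CPM or below, was not called either (-0.70 ± 0.39, adjusted p = 0.194).

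The TAM receptors AXL, TYRO3 and MERTK bind GAS6 and PROS1, which bridge them to phosphatidylserine on dying cells. AXL was the second most abundant kinase per length and was not called, at 140.1 to 147 CPM in control and 146 to 158 CPM in ENL (0.06 ± 0.07, adjusted p = 0.531). TYRO3 stood at 3.49 to 6.32 and 4.91 to 5.55 CPM (0.10 ± 0.23). MERTK (chromosome 2, 111898479 to 112029561, plus strand), known for engulfment of dead cells, was at 0.617, 0.543 and 0.518 CPM in control and 1.04, 1.09 and 1.08 CPM in ENL. The groups were well apart at this low level. Its log2 fold change was 0.93 ± 0.29 (adjusted p = 0.0424), but the call held in only 6 of 16 other settings, and it ended when any library was left out (adjusted p = 0.0726 to 0.123), without a filter (0.0601) and with both other scalings named above (0.0591 and 0.0865).

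In the ERBB family ERBB2 was called lower. ERBB2 (chromosome 17, 39687914 to 39730426, plus strand), the receptor with no ligand of its own, was at 74.3, 79.6 and 81.2 CPM in control and at 64.6, 65.5 and 63.3 CPM in ENL. All ENL libraries lay below all control libraries by a small margin. The log2 fold change was -0.28 ± 0.08 (adjusted p = 0.0247), and the call ended without control library 2 (0.0904), control library 3 (0.103) or ENL library 1 (0.0687), and after a correction for transcript length (0.0636). ERBB2 shares 571 exon bases with MIEN1 and 194 with PGAP3 on the opposite strand, neither of which was called. EGFR was at 79.4, 72.1 and 80.5 CPM in control and at 81.7, 78.7 and 105 CPM in ENL, where library 3 alone lay high (0.19 ± 0.13, adjusted p = 0.264). ERBB3, the partner of ERBB2 with a weak kinase, averaged 1.147 CPM in control and 0.600 CPM in ENL (-0.93 ± 0.62, adjusted p = 0.279), and ERBB4 was at 0 in all 6 libraries. In the MET family, MET, the receptor of hepatocyte growth factor, stood at 114 to 125 and 95.3 to 120.5 CPM (-0.14 ± 0.10, adjusted p = 0.311). MST1R, the receptor of macrophage-stimulating protein, stood at 9.66 to 11.4 and 7.41 to 9.25 CPM without overlap (-0.36 ± 0.14, adjusted p = 0.0839), and passed the test without ENL library 3 (0.0390).

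The 4 fibroblast growth factor receptors split into 1 that fell and 3 that were not called. FGFR4 (chromosome 5, 177086886 to 177098144, plus strand), which in liver answers to FGF19, was at 9.67, 9.27 and 9.49 CPM in control and at 2.68, 5.24 and 2.89 CPM in ENL. The control libraries were close together, and ENL library 2 lay between them and the other ENL libraries. The log2 fold change was -1.40 ± 0.27 (adjusted p = 0.00695) and ranged from -1.76 to -1.22 in the other 16 settings in which the gene was tested, with an adjusted p of at most 0.0269. FGFR1, the most abundant of the family, was at 83.4 to 90.2 CPM in control and 77.1 to 94.97 CPM in ENL (-0.01 ± 0.10). FGFR2 averaged 6.77 ± 1.95 and 7.64 ± 1.23 CPM, and FGFR3 1.55 ± 0.419 and 1.44 ± 0.311 CPM.

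Receptors of the PDGF receptor family, which mark mesenchymal and myeloid cells, were at or below about 1 CPM. PDGFRB (chromosome 5, 150113837 to 150155872, minus strand), a receptor of fibroblasts and pericytes, was at 0.492, 1.18 and 0.482 CPM in control and at 0.117, 0.176 and 0.241 CPM in ENL. Control library 2 stood apart from the other controls. The log2 fold change was -1.997 ± 0.58 (adjusted p = 0.0315), from about 45 fragments in control and 10 in ENL. CSF1R, the neighbouring gene (chromosome 5, 150053291 to 150113372, minus strand) and the receptor of macrophage colony-stimulating factor, was at 0.286, 0.543 and 0.435 CPM in control and at 0, 0.0587 and 0.0722 CPM in ENL. About 26 fragments in control stood against 3 in ENL, a ratio of 0.133 with an exact 95% counting interval of 0.0258 to 0.435 (adjusted p = 0.0281). Here too the interval covers counting error only, not the spread between libraries. Both genes passed the low-count filter only through the control libraries, and neither was tested with counts divided by 4. The PDGFRB call ended in limma-voom (0.0599) and the CSF1R call without a filter (0.0610). Leaving out any library but ENL library 3 ended the PDGFRB call (0.0517 to 0.145), and the CSF1R call ended without control library 1, 2 or 3 or ENL library 2 (0.0642 to 0.0969). PDGFRA (-0.24 ± 0.74) and KIT (-0.50 ± 0.50) were not called. PDGFRA shares 1533 exon bases with a readthrough gene on its strand, AC058822.1, which was listed at 0 in all 6 libraries.

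Levels of other cell types' markers were as follows, with 1 of 4 tested haematopoietic and 1 of 6 tested fibroblast markers called. These shares were 25% and 16.7%, beside 38.4% of all tested genes. The summed level of 8 haematopoietic markers was 8.22 to 14.2 CPM in control and 1.54 to 2.86 CPM in ENL, most of it from CD14 (9.68 ± 1.31 and 1.71 ± 0.565 CPM), the 1 of 4 tested markers that fell. None of the 8 was at 0 in all libraries, and the other 7 averaged under 0.5 CPM in both groups, among them PTPRC at 0.494 and 0.0943 CPM and SPI1 at 0.0494 and 0.0161 CPM. The sum of 7 fibroblast markers, PDGFRA included, was 22.9, 48.3 and 21.98 CPM in the control libraries and 19.1, 17.0 and 17.6 CPM in the ENL libraries. Control library 2, the library in which PDGFRB was highest, held more than the other controls, and 1 of 6 tested markers, COL1A2, fell. Their part in the falls of CSF1R and PDGFRB was not tested. In bulk RNA, fewer cells of a type and less RNA per cell cannot be told apart.

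Insulin and collagen receptors, and those of vessels and nerves, held no called member. INSR and IGF1R, which control growth and glucose use, stood at 29.8 to 31.8 and 46.9 to 55.01 CPM in control and at 27.9 to 33.2 and 43.7 to 55.5 CPM in ENL (log2 fold changes -0.03 ± 0.10 and -0.09 ± 0.12). For the fibrillar collagen receptor DDR2 the value was 0.15 ± 0.11 and for DDR1 it was 0.42 ± 0.15 (adjusted p = 0.0697), with no overlap between the groups for DDR1. FLT4, a receptor of lymphatic vessels, was at 0.568 to 0.606 CPM in control and 0.205 to 0.470 CPM in ENL without overlap (-0.96 ± 0.48, adjusted p = 0.157). TEK, the angiopoietin receptor, and RET, the receptor of the GDNF family, had log2 fold changes of -0.70 ± 0.65 and 0.06 ± 0.53. KDR was at 0 in all 6 libraries, as were CDH5 and EMCN, 2 of 7 endothelial markers. The summed level of the 7 was 5.83 to 9.22 CPM in control and 5.56 to 6.80 CPM in ENL. Most of it came from VWF (6.48 ± 1.78 and 6.22 ± 0.568 CPM). VWF and ESAM, the 2 endothelial markers that were tested, were not called. FLT1, TIE1, ALK and LTK held at most 4 fragments per group. A count of 0 allows a level of up to 3 fragments, or 0.137 to 0.176 CPM in a library; these limits cover counting error only.

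Levels of different receptors were compared as CPM per kilobase of the longest annotated transcript. By that measure EPHA2 stood first in both groups, at 89.8 ± 3.45 in control and 107 ± 4.75 in ENL, and by itself made up 33.0% to 36.6% of the sum over the 44 genes in each library. AXL was second (30.5 ± 0.796 and 31.8 ± 1.42). In control RYK came next (21.8 ± 1.23), followed by MET, PTK7 and EPHB4 (17.9, 17.8 and 17.4), whose libraries overlapped from neighbour to neighbour, then ERBB2 (16.4), FGFR1 (14.4), DDR2 (8.72) and EGFR (7.88), none of which overlapped the next. PTK7, at 15.4 to 21.9 in the control libraries, also overlapped RYK (20.8 to 23.2) and ERBB2 (15.5 to 17.0). In ENL EPHB4 moved from rank 6 to rank 3 (26.6 ± 0.565), where it overlapped RYK (25.7 ± 2.12), which overlapped PTK7 (25.1 ± 1.39); MET, FGFR1 and ERBB2 followed (16.2, 14.3 and 13.4) and overlapped from neighbour to neighbour. EPHA4 went from rank 18 to 14 and EPHA5 from 32 to 20, while FGFR4 went from 13 to 18. Summed per kilobase, the 44 kinases came to 261 to 269.7 in the control libraries and 293 to 318 in the ENL libraries on the trimmed mean scale. As a share of raw units the groups overlapped, at 0.139% to 0.145% and 0.129% to 0.154%.

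**Figure D3:**
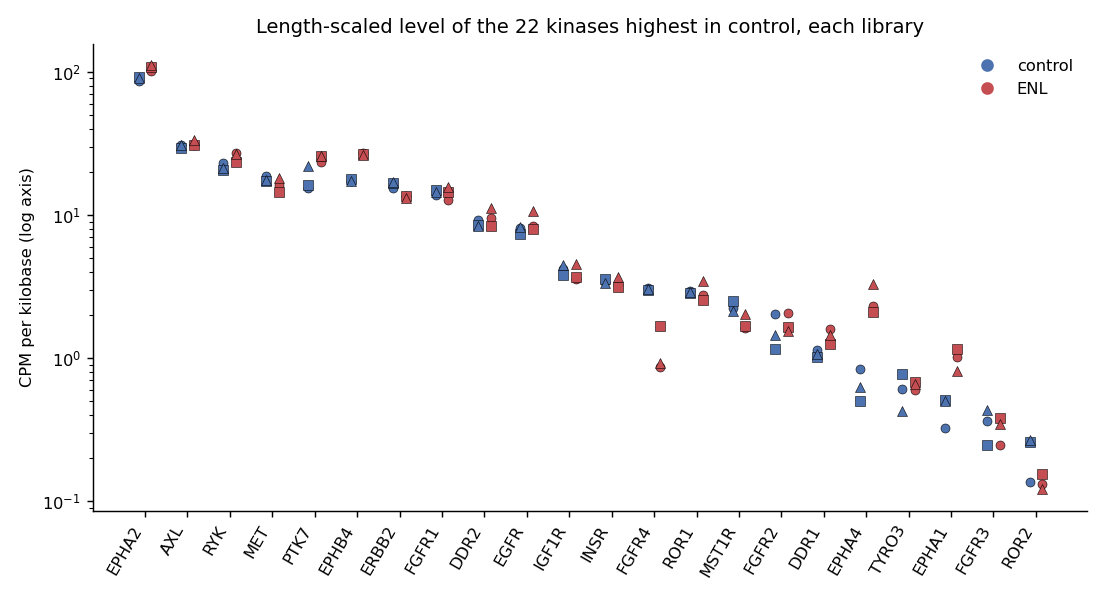
CPM per kilobase (log y axis) in each library for the 22 kinases with the highest control means (x axis). EPHA2 stands alone at the top near 100, and FGFR4 and EPHA4 are those whose ENL and control points lie farthest apart.

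Ligands of these receptors changed in both directions. Of 45 tested ligand genes 10 rose and 6 fell, 35.6% beside the 38.4% of all genes, with a median log2 fold change of 0.01; 1 listed ligand was not analysed here. The ephrins, ligands of the Eph receptors, were divided: EFNA4 rose from 8.02 ± 1.16 to 26.9 ± 3.42 CPM and EFNA3 from 5.64 ± 1.18 to 14.0 ± 0.959 CPM, while EFNA5 fell from 35.2 ± 2.61 to 21.3 ± 2.67 CPM. EFNB2, the ligand of EPHB4, was at 40.1, 36.6 and 38.9 CPM in control and at 15.5, 13.3 and 19.1 CPM in ENL, a log2 fold change of -1.27 ± 0.14 (adjusted p = 0.000884). Thus the receptor EPHB4 was higher and its ligand lower in every ENL library than in every control library. EFNB1 fell by 0.40 ± 0.09, and EFNA1 (0.18 ± 0.14) and EFNB3 (0.22 ± 0.12) were not called. EFNA3 and EFNA4 share exon bases with AL691442.1 on the same strand and EFNB2 with an antisense gene (1313 bases), which leaves their values uncertain.

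Of the other ligands, GDF15, a stress hormone that signals through RET with a brain co-receptor, rose from 119 ± 8.76 to 1188 ± 183 CPM. GFRAL, the gene of that co-receptor, was at 0 in all libraries, and RET averaged 0.283 CPM in control and 0.295 CPM in ENL. PGF, a ligand of FLT1, and FGF5 fell, with log2 fold changes of -1.19 ± 0.12 and -1.31 ± 0.14. FGF2, which binds FGFR1 and other FGF receptors, was at 46.1, 200.6 and 59.4 CPM in control and at 291, 343 and 408 CPM in ENL. The groups did not overlap, but control library 2 stood far above the other controls, and the difference of 1.77 ± 0.59 did not pass (adjusted p = 0.0621). It passed in 4 of 17 other settings, among them without control library 2 (2.72, adjusted p = 0.000765), in DESeq2 (0.0333) and in limma-voom (0.0170). FGF2 shares 804 exon bases with NUDT6 on the opposite strand. CSF1, a ligand of CSF1R, rose from 21.4 ± 1.83 to 29.1 ± 2.03 CPM (adjusted p = 0.0177), a call that ended under scaling by totals (0.111) and without control library 1 or 3 or ENL library 1 (0.0575, 0.0700 and 0.0582). GAS6, the ligand of the TAM receptors, was at 85.1 ± 6.13 and 93.1 ± 6.84 CPM (0.13 ± 0.09) and PROS1 had a log2 fold change of -0.43 ± 0.43. PDGFA rose from 0.187 ± 0.223 to 1.195 ± 0.359 CPM (adjusted p = 0.0424); the call ended without any 1 of 5 libraries (0.0682 to 0.115) and under scaling by totals (0.0525), and held without control library 2. Among co-receptors, which present ligands to the kinases, 1 of 12 tested rose (CD44) and 2 fell (GPC1 and LRP6), 25% beside 38.4% of all genes, with a median of -0.37. The CD44 call ended without control library 1 (0.0546) and under scaling by totals (0.170), and the LRP6 call without any library other than ENL library 3 (0.0526 to 0.106).

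Inside the cell, 13 of 56 tested adaptors and proximal effectors rose and 13 fell, 46.4% beside 38.4% of all genes, with a median of -0.08. The insulin receptor substrate IRS2 rose from 8.43 ± 0.211 to 25.7 ± 4.74 CPM and PIK3R1, a regulatory subunit of PI3-kinase, from 46.1 ± 4.55 to 143 ± 34.7 CPM, while PIK3R3, another such subunit, fell from 19.0 ± 1.67 to 10.7 ± 0.601 CPM. RASA1, which turns RAS off, rose by 0.91 ± 0.10 on the log2 scale. GRB2, the adaptor between receptors and RAS, fell by 0.55 ± 0.07 and LYN, a SRC family kinase, by 1.27 ± 0.14. IRS1 was not called (0.19 ± 0.16). PIK3R3 shares 1292 exon bases with a gene of the same strand and RASA1 771 with CCNH on the opposite strand, which leaves both uncertain.

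Negative regulators and chaperones of the receptors were called in both directions, 7 of 33 higher and 8 lower, 45.5% beside 38.4% of all genes, with a median of -0.09. ERRFI1, an inhibitor that binds EGFR and ERBB2, was at 1002, 908 and 961 CPM in control and at 437, 422 and 492 CPM in ENL, a log2 fold change of -1.09 ± 0.09 (adjusted p = 0.000254). LRIG1, which marks ERBB and MET receptors for degradation, fell from 9.94 ± 0.603 to 5.85 ± 0.689 CPM, and its exons share 907 bases with SLC25A26 on the opposite strand. HSP90AA1, a chaperone on which ERBB2 depends, and UBASH3B, a phosphatase that acts on receptors, also fell, by 1.12 ± 0.08 and 1.31 ± 0.12 on the log2 scale. In the other direction, the suppressors of cytokine signalling SOCS1 and SOCS3 rose by 3.29 ± 0.27 and 0.69 ± 0.10. So did HSP90AB1, the other HSP90 gene of the list, from 1468 ± 7.60 to 1939 ± 28.3 CPM (0.40 ± 0.07, adjusted p = 0.00471). The HSP90 genes thus went opposite ways. CBL, the ubiquitin ligase of many of these receptors, was at 6.17, 6.07 and 42.3 CPM in control and at 41.4, 5.24 and 53.0 CPM in ENL. Libraries of both groups thus stood at both levels, and CBL was not called (0.87 ± 1.10).

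Genes that respond to ERK, the kinase at the end of the RAS pathway, were called in both directions: 6 of 22 rose and 8 fell, 63.6% of the list beside 38.4% of all genes, with a median of -0.05. DUSP4, a phosphatase of ERK, rose from 107 ± 2.03 to 512 ± 26.9 CPM and IER3 from 10.7 ± 0.218 to 51.0 ± 6.04 CPM, whereas the feedback inhibitor SPRY4 fell from 105 ± 4.56 to 38.3 ± 1.90 CPM and the cyclin gene CCND1 from 141 ± 5.52 to 63.0 ± 2.37 CPM. DUSP6 and DUSP7, 2 other ERK phosphatase genes, fell by 0.39 ± 0.08 and 0.61 ± 0.08 on the log2 scale, and SPRY2 rose by 0.46 ± 0.08, a call that ended under scaling by totals (0.0837). CCND1 shares 497 exon bases with LTO1 on the opposite strand and DUSP6 1875 with an antisense gene. ETV4 fell by 0.32 ± 0.09 (adjusted p = 0.0268), a call that ended without control library 1, 2 or 3 or ENL library 1 (0.0622 to 0.0935), and ETV5 was not called (0.08 ± 0.08). The receptors EPHA2 and EPHA4 belong to this list too. 

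**Figure D4:**
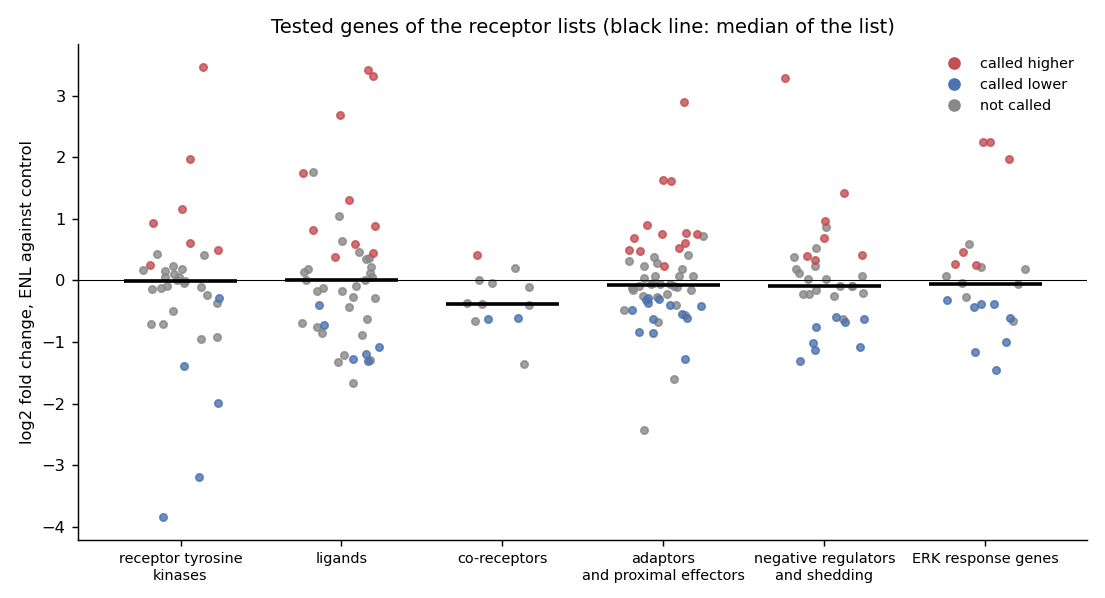
Log2 fold change (y axis, ENL against control) of every tested gene of the receptor class and of 5 lists around it (x axis), with the median of each as a black line. Red (higher) and blue (lower) points lie on both sides of 0 in each list, and the medians range from -0.37 to 0.01.

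Whether a receptor was called depended on the setting for 12 of the 17 kinases called in any of the fits. EPHA5, EPHA4, EPHA1, EPHB4 and FGFR4 had the same call in every fit that tested them. EGFR, DDR1 and DDR2 were called only after a correction for transcript length, which raised their log2 fold changes to 0.29, 0.48 and 0.24 (adjusted p = 0.0118, 0.0347 and 0.0273), and in that fit 42.2% of all genes were called. Among the receptors 7 rose and 5 fell in DESeq2 (43% of all genes called), 7 and 4 in limma-voom (39.6%), 4 and 6 with upper-quartile scaling (39%) or library totals (41.2%), 6 and 3 without a filter (30.1%), 4 and 1 with a filter of 10 CPM in 3 libraries (45.1%), 7 and 2 with counts divided by 4 (42.3%), and 7 and 5 without mitochondrially encoded genes (38.3%). With 1 library left out, 4 to 5 rose and 1 to 6 fell; the background was then 27.8% without control library 1 or 2, 26.6% without control library 3, 30% without ENL library 1, 32.1% without ENL library 2 and 41.8% without ENL library 3. Of these 6 fits the one without ENL library 3 gave the most falls (6).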

How the data were processed

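RNA sequencing was run on 3 control and 3 ENL libraries of BT549, grouped by their titles. The authors deposited 1 table of estimated counts per gene; per the submitters' processing notes FastQC, STAR, StringTie and DESeq2 were used with build hg38, with versions, settings, annotation and strand use not given in the sources used here. Deposited values are whole numbers but 70.8% to 73.1% of those from 4 to 43 were multiples of 4 or 1 above them, so that about 4 units stand for 1 fragment and low values carry more counting error than they show.

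Low genes were removed by filterByExpr of edgeR at a minimum count of 10. TMM factors set the CPM values, and genes were tested with glmQLFit (robust) and glmQLFTest on the group alone, with Benjamini-Hochberg adjustment over all tested genes and a threshold of 0.05 (R 4.3.3, edgeR 4.0.16, limma 3.58.1, DESeq2 1.42.0). Standard errors were derived from the F statistic. The procedure was tested on simulated data. Fragments of genes with low counts were taken as units divided by 4.

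The members and gene lists were chosen with earlier results of these data known. Named are all members, of each list up to 3 genes in each direction by smallest adjusted p, ligands of called members and a fixed set of regulators and markers. CD14, COL1A2, PTPRC, SPI1, FGF2, HSP90AB1 and GFRAL were added after their values were seen. So were the endothelial markers, the other epithelial and mesenchymal markers and the genes that share exons with a member. The values of 1 gene that this rule names are not reported here. Positions, lengths and exon overlaps come from GENCODE 29 (GRCh38), which matched 44 of 44 members, and promoters from RefSeq, which matched 41. Pairs of libraries within a group differed by more than sampling noise (chi-square per degree of freedom 21.0 to 54.8), so all 6 were counted. The other settings are named in the closing section.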

Additional observations from a re-analysis of the deposited data

How the results depend on the processing

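The 17 other settings moved some values. With upper-quartile scaling 4 receptors rose, and AXL, ROR1, RET and ETV5 turned to log2 fold changes of -0.025, -0.072, -0.024 and -0.010. With library totals 1804 genes rose and 3996 fell, 4 receptors rose, and the values turned to -0.0077 (EGFR), -0.14 (AXL), -0.10 (TYRO3), -0.038 (FGFR2), -0.051 (DDR2), -0.19 (ROR1), -0.16 (RET), -0.13 (ETV5), -0.0071 (IRS1), -0.031 (EFNA1) and -0.079 (GAS6). In limma-voom EPHB3 turned to 0.083 and CDH1 to 0.66. Without a filter 3 receptors fell, and with a minimum of 10 CPM in 3 libraries, where only 15 were tested, 4 rose, 1 fell and ROR1 turned to -0.019. With counts divided by 4, 2 fell among 29 tested. With the length correction, chosen after seeing the data, FGFR1, INSR and IGF1R turned to 0.069, 0.066 and 0.0039. None of the genes that turned was called in any of these fits, apart from EGFR and DDR2 with the length correction. Causes were not tested.

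Controls and ENL libraries share replicate numbers, and same-numbered libraries deviated together only weakly (correlations of 0.030, 0.046 and 0.080). Correlations of the other pairs ran from -0.075 to 0.032, the highest being that of ENL library 1 with control library 2. The labels state no pairing, and correlations this weak do not decide whether the numbers pair the libraries. With the replicate block 2631 genes rose and 2310 fell, and 6 receptors rose and 2 fell (35.1% of all genes called). The calls of MERTK, PDGFRB, CSF1R, EPHB6 and ETV4 then missed the threshold (adjusted p = 0.0998, 0.0686, 0.0528, 0.0965 and 0.0573), FGF2 passed it (0.0435), EPHB3 turned to 0.063 and CDH1 to 0.23.

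With 1 library left out, 2072 to 3156 genes rose and 1743 to 2877 fell. In these fits 4 to 5 receptors rose and 1 to 6 fell, and 27 to 37 pathway genes rose and 22 to 44 fell. The share of all tested genes that was called ran from 26.6% to 41.8%, beside 38.4% with all 6 libraries. The pathway counts are not set beside a number tested, so they are not read apart from that background. Log2 fold changes that turned ranged from -0.095 to 0.32 for TYRO3, -0.79 to 0.27 for PDGFRA, -0.069 to 0.069 for FGFR1, -0.29 to 0.092 for FGFR3, -0.096 to 0.020 for INSR, -0.11 to 0.11 for ROR1, -0.53 to 0.46 for EPHB3, -0.25 to 0.32 for RET, -0.78 to 0.44 for CDH1 and -0.50 to 0.075 for ESR1. Over all settings 486 values of receptors kept direction and call, 47 lost the call, 7 gained it and 29 turned. PDGFRB, CSF1R and EPHB6 rest on 45, 26 and 17 fragments over the control libraries and 10, 3 and 1 over the ENL libraries, so counting error is large for them.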

Other observations

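Among receptors that were not called, TEK was at 0.161 and 0.250 CPM in ENL libraries 1 and 2 and at 0.771 CPM in ENL library 3, while the control libraries ranged from 0.444 to 0.778 CPM. PDGFRA ran the other way within the ENL group, at 1.10 and 0.778 CPM in libraries 1 and 2 and 0.132 CPM in library 3. ERBB3 spread from 0.176 to 1.10 CPM over the ENL libraries. PROS1, a ligand of the TAM receptors, was at 20.5 to 22.6 CPM in the control libraries and at 25.3, 7.15 and 14.6 CPM in the ENL libraries.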
